A study of Mus musculus with 24 samples.

Results

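The myelin genes of mature oligodendrocytes Mbp, Mog, Mag, Mobp, Cnp, Mal, Cldn11 and Opalin were followed through the brain transcriptomes of 24 mice. They were taken by gene name from the 54532 genes of the deposited expression table, and 8 of 8 were found. Each was expressed in 24 of 24 mice, so 8 of 8 stayed among the 27286 genes that were above 0 in at least 6 mice and were tested. All mice were male WT C57Bl6 animals, 8 to 12 weeks old. For 14 days they received either saline (the vehicle, 0.9%) or angiotensin II at 0.7 mg/kg/d from an implanted osmotic minipump, a treatment that raises blood pressure. After pump surgery, saline or 1000000 human amnion epithelial cells (AECs), which line the membrane around the foetus, were injected into the tail vein. The 4 groups of 6 mice were thus vehicle, angiotensin II, vehicle + AECs and angiotensin II + AECs. The comparisons ask whether angiotensin II infusion altered the brain transcriptome and whether the injected cells altered it further. Each library came from a separate mouse, and the RNA was that of brain hemispheres, not of isolated oligodendrocytes. A lower level can therefore not be told apart between fewer oligodendrocytes and less RNA in each of them.

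Myelin is the multilayered membrane that oligodendrocytes wrap around axons, which speeds conduction and supplies the axon. Its layers are held together on the cytoplasmic side by basic proteins (Mbp, Mobp) and on the outer side by membrane proteins, while adhesion molecules such as Mag face the axon. White matter is fed by long, thin arterioles and is regarded as a tissue that suffers early in chronic hypertension.

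Expression was given by the authors in FPKM, which scales the number of sequenced fragments of a gene by its length and by the size of the library. The libraries held 16536449 to 25308700 fragments. The 8 genes together took 0.632% to 0.975% of all fragments of a library. The libraries fell into 2 sets with a gap between them that follows no treatment. In 6 libraries (2 of vehicle, 1 of angiotensin II, 1 of vehicle + AECs and 2 of angiotensin II + AECs) the FPKM of all genes summed to 338334.5 to 348596.7, against 277115.9 to 298300.6 in the other 18, and mitochondrial transcripts took 6.17% to 6.85% against 4.79% to 5.75%. The labels name no such sets, and what sets them apart was not tested, so results are given for all libraries, with the set as a term in the fit, and in the 18 libraries alone. One library, angiotensin II replicate 4, held pituitary hormone transcripts (Prl, Gh, Pomc and Cga) that summed to 1572 FPKM, against at most 33.0 in the other libraries.

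The brain label was checked against cell type markers. Neuronal genes (Rbfox3, Snap25, Syt1, Slc17a7 and Gad1) summed to 667.9 to 774.1 FPKM and astrocyte genes (Aldh1l1, Gfap, Aqp4, Slc1a3 and Gja1) to 153.4 to 189.8 FPKM, and none of these was at 0 in any mouse. Mbp, Mag and Mal are also made by Schwann cells, the myelin cells of peripheral nerves. Of the Schwann cell markers, Pmp2 was at 0 in 21 of 24 mice. Prx ranged from 0.167 to 0.923 FPKM, Egr2 from 0.475 to 2.21 FPKM and Ncmap from 0.335 to 0.990 FPKM.

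Gene positions are those of GRCm38 in the deposited table. Mog (ENSMUSG00000076439) lies on chromosome 17 from 37010743 to 37023398 on the reverse strand, Mag (ENSMUSG00000036634) on chromosome 7 from 30899176 to 30914873, also reverse, and Mal (ENSMUSG00000027375) on chromosome 2 from 127633226 to 127656695, reverse. Mobp (ENSMUSG00000032517) spans 120149707 to 120181484 on chromosome 9, forward, and Cnp (ENSMUSG00000006782) 100574904 to 100591729 on chromosome 11, forward. Cldn11 (ENSMUSG00000037625) spans 31149920 to 31164324 on chromosome 3, forward, and Opalin (ENSMUSG00000050121) 41062474 to 41077113 on chromosome 19, reverse. Mbp (ENSMUSG00000041607) lies on chromosome 18 from 82475146 to 82585637, forward. Cnp shares 154 exonic bases with Dnajc7 on the opposite strand (30.0 FPKM on average) and Mobp shares 79 with Gm38642 (1.06 FPKM). Whether the strand of the reads was used in counting is not given in the sources used here, so part of the Cnp value can belong to Dnajc7.

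By length-corrected level, averaged over 24 mice, the order was Mbp (521.4 FPKM), Mobp (208.2 FPKM), Cnp (154.9 FPKM), Cldn11 (104.5 FPKM), Mal (104.1 FPKM), Mag (70.1 FPKM), Mog (59.3 FPKM) and Opalin (15.5 FPKM). Mbp stood above Mobp, Cnp above Cldn11, Mag above Mog, and Mog above Opalin in 24 of 24 mice, whereas Mobp exceeded Cnp in 22, Mal exceeded Mag in 22 and Cldn11 exceeded Mal in only 6. The values rest on many fragments for most genes, 60845 to 126539 per mouse for Mbp, but on only 332 to 936 for Opalin, for which counting error alone gives a coefficient of variation of 4.25%. The lengths by which the authors divided equalled those of all exons together in the GENCODE M21 annotation for 6 of the 8 genes, and were 8403 against 8469 bases for Mbp and 1838 against 2946 for Opalin. The longest coding transcript of Mbp has 4797 bases. The length used was 6849 against 3286 for Mobp, 4072 against 2434 for Mag and 3639 against 2357 for Cnp. The levels of these genes relative to Cldn11 (1870 bases in both) and Mal (2778 in both) are therefore lower than a transcript length would give. The place of Mag below Cldn11 and Mal thus holds only for the lengths used.

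Promoter windows of 7 of the 8 genes were taken from RefSeq (GRCm38.p6). Between the library sets, Mog and Mag did not overlap and Opalin overlapped slightly, each with the higher mean in the high set. Mal had the lower mean there. Because their genes differ in this way, 4 windows of 250 bases just upstream of the start are shown. Each is printed 5′ to 3′ on the strand of the gene, with matches in capitals to 4 motifs of oligodendrocyte transcription factors searched on both strands, ACAAAG and ACAATG (recognised by SOX factors such as Sox10), CAGCTG (an E-box of the kind Olig2 binds) and CTGGNAC (recognised by Myrf, the factor that switches on myelin genes). No motif overlapped another. The windows are chr17:37023399-37023648 for Mog, chr7:30914923-30915172 for Mag, chr19:41077114-41077363 for Opalin and chr2:127656696-127656945 for Mal, all on the reverse strand.
Mog: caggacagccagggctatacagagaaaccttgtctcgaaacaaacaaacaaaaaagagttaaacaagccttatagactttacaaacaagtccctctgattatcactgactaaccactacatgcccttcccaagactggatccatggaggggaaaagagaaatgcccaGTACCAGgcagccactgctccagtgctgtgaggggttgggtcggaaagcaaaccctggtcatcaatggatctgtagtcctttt
Mag: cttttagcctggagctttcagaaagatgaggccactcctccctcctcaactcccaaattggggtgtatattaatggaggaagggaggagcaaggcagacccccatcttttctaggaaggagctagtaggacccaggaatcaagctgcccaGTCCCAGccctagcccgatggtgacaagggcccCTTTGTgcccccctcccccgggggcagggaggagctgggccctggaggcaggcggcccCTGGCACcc
Opalin: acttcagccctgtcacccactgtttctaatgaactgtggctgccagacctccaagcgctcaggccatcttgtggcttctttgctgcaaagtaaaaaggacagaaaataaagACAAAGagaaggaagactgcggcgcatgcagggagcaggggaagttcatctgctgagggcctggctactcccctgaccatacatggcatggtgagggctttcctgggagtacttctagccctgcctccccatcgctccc
Mal: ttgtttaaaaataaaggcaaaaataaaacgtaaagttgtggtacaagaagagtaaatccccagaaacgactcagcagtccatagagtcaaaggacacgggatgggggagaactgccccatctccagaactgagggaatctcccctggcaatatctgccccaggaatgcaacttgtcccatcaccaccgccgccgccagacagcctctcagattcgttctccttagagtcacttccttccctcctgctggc
Mog held 1 match to CTGGNAC, Opalin 1 to ACAAAG, Mag 1 to ACAAAG and 2 to CTGGNAC, and Mal none, and the Cldn11 window held none either. Over the 7 genes, ACAAAG was found for 4 and CTGGNAC for 3, and ACAATG and CAGCTG for 0. Counted by window, ACAAAG was in 5 of 9 and CTGGNAC in 4 of 9. The 9 windows include some that overlap annotated exons and more than 1 for Mag. The Mag windows that held matches overlap each other, so the same matches were counted in each of them. The counts by window are therefore not of separate stretches, and only the counts by gene avoid this. Of 32851 promoter windows of this length, 16.5% held ACAAAG, 10.7% ACAATG, 13% CAGCTG and 16.1% CTGGNAC. A match is a stretch of letters and not a measured binding site.

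Angiotensin II infusion was not accompanied by a detectable change in any of the 8 myelin genes. Mbp, the basic protein that compacts the cytoplasmic faces of the sheath, had a lowest, median and highest level of 435.8, 483.8 and 714.2 FPKM in vehicle mice and of 448.4, 470.5 and 707.8 FPKM in angiotensin II mice. Mobp, a second basic protein of compact myelin, had 186.7, 201.7 and 221.3 FPKM in vehicle mice and 188.6, 204.8 and 249.3 FPKM in angiotensin II mice. Cnp, an enzyme of the non-compact cytoplasmic channels, had 127.5, 139.8 and 208.7 FPKM in vehicle mice and 127.0, 134.7 and 210.3 FPKM in angiotensin II mice. The groups overlapped for all 3 genes, and in each group the highest Mbp and Cnp values were those of libraries with a high total FPKM. Mag, which binds the axon from the innermost layer, had 58.1, 64.2 and 96.0 FPKM in vehicle mice and 59.8, 64.9 and 94.0 FPKM in angiotensin II mice. Mog, a surface protein of the outermost layer, had 47.4, 55.1 and 76.3 FPKM in vehicle mice and 50.2, 55.8 and 81.5 FPKM in angiotensin II mice. Cldn11, the claudin of the tight junctions between myelin layers, had 94.0, 102.9 and 126.5 FPKM in vehicle mice and 91.1, 97.7 and 127.4 FPKM in angiotensin II mice. These 3 genes overlapped between the groups as well. Mal, a lipid raft protein that sorts myelin membrane, had 85.4, 102.4 and 114.7 FPKM in vehicle mice and 99.4, 106.5 and 111.9 FPKM in angiotensin II mice. Opalin, a transmembrane glycoprotein of oligodendrocytes, had 12.3, 14.5 and 17.4 FPKM in vehicle mice and 10.9, 13.2 and 25.1 FPKM in angiotensin II mice. The lowest Mal values were those of vehicle replicates 5 and 6, which carried the highest Mbp, Cnp, Mag, Mog, Cldn11 and Opalin values of the group.

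**Figure D1:**
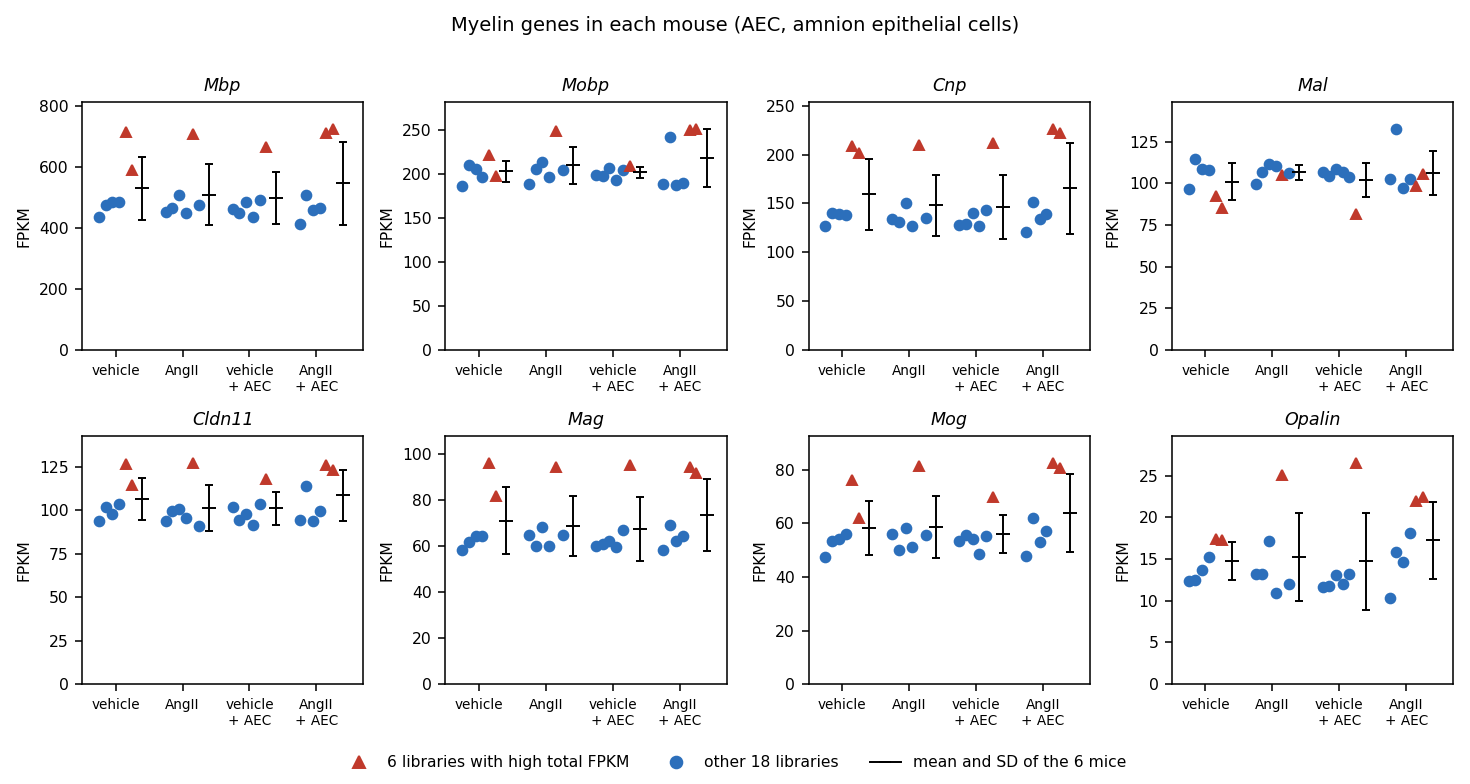
FPKM of each myelin gene (vertical axis, from 0) in every mouse of the 4 groups (horizontal axis). Triangles are the 6 libraries with a high total FPKM, circles the other 18, and bars the mean and SD of 6 mice. The triangles sit on top for Mbp, Cnp, Mag, Mog and Cldn11 in every group, and at the bottom for Mal in the vehicle and vehicle + AECs mice.

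Differences between groups were tested across all genes in limma, in a single fit of the 24 mice on the log2(FPKM + 0.1) scale. Between angiotensin II and vehicle, 0 of 8 genes passed an unadjusted p of 0.05, against a background of 2.21% of all genes tested, and 0 passed an adjusted p of 0.05 (0 of all genes). A count of 0 of 8 does not stand apart from a background of that size. Estimates were as often above 0 (4 genes) as below (4 genes), from -0.10 for Cnp (SE 0.18) to 0.085 for Mal (SE 0.085, unadjusted p = 0.326 in limma, adjusted p = 0.994), with a median of -0.020 beside 0.021 for all genes. The 95% confidence intervals of the 8 genes lay between -0.46 and 0.45. Two-sided exact permutation tests of 6 against 6 mice gave p of 0.271 to 0.987, where 0.00217 is the smallest such a design allows. Leaving out the library with pituitary transcripts gave a median of 0.019 and again 0 of 8 genes. Leaving out any 1 mouse gave medians from -0.14 (without angiotensin II replicate 5) to 0.051 (without vehicle replicate 5).

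The precision of this comparison was limited by the library sets and improved when they were modelled. With the set as a term in the limma fit, the median SE of the 8 genes went from 0.14 to 0.058, and the intervals narrowed to between -0.14 and 0.38. Of the estimates, 7 were then above 0 and 1 below, led by Opalin at 0.12 (SE 0.13) and Mog at 0.091 (SE 0.064, unadjusted p = 0.167 in limma, adjusted p = 1). Again 0 of 8 genes passed, against 3.46% of all genes. In the 18 other libraries the groups were close: Mbp averaged 469.9 ± 23.0 FPKM in the 4 vehicle mice and 469.4 ± 23.5 FPKM in the 5 angiotensin II mice (mean ± SD). In the same mice Mag averaged 62.1 ± 2.90 and 63.5 ± 3.61 FPKM, and Opalin 13.4 ± 1.37 and 13.3 ± 2.38 FPKM. For Cnp the interval with the set as a term ran from -0.094 to 0.11, a fold of 0.937 to 1.08.

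AECs given to angiotensin II mice were not followed by a detectable change either. In angiotensin II + AECs mice the lowest, median and highest Mbp levels were 412.8, 488.2 and 724.7 FPKM, and those of Mobp were 187.4, 215.7 and 251.3 FPKM. Cnp had 120.4, 145.4 and 226.3 FPKM and Mal 97.2, 102.6 and 132.7 FPKM in these mice. Cldn11 had 93.9, 106.8 and 126.4 FPKM, and Opalin 10.3, 17.0 and 22.5 FPKM. For 7 of the 8 genes, Opalin excepted, this group had the largest SD, and it held both the highest and the lowest Mbp and Cnp values of the 24 mice. Mag had 58.0, 66.8 and 94.4 FPKM, and Mog 47.9, 59.5 and 82.6 FPKM. All 8 genes overlapped with the angiotensin II group.

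Compared with angiotensin II alone, 7 of 8 estimates were above 0 and 1 below, with a median of 0.093 beside -0.017 for all genes, and 0 of 8 genes passed an unadjusted p of 0.05 against a background of 2.54%. The lowest p was that of Cldn11 (log2 difference 0.098, SE 0.096, unadjusted p = 0.317 in limma, adjusted p = 1), and exact permutation tests gave p of 0.409 to 0.939. The angiotensin II + AECs group held 2 libraries of the high set and the angiotensin II group 1. With the set as a term the median fell to 0.026, with 6 genes above 0 and 2 below and 0 of 8 past the threshold against 3.90% of all genes, and intervals lay between -0.19 and 0.33. Within the 18 other libraries the median was 0.0095, and there Mbp averaged 461.7 ± 39.8 FPKM (SD, n = 4) in angiotensin II + AECs mice, beside 469.4 ± 23.5 FPKM with angiotensin II alone (n = 5). In the fit of groups only, the median was 0.064 without the library with pituitary transcripts, 0.021 without angiotensin II + AECs replicate 5 and 0.18 without angiotensin II replicate 5. This comparison and the previous one share the angiotensin II mice.

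In vehicle + AECs mice the lowest, median and highest Mbp levels were 436.6, 473.4 and 666.0 FPKM, and those of Cnp were 126.7, 134.2 and 212.1 FPKM. Mobp had 193.6, 201.8 and 209.2 FPKM, with a coefficient of variation of 3.04%, the lowest of the 8 genes in any group. Mag had 59.5, 61.5 and 95.01 FPKM, Mog 48.6, 54.7 and 69.7 FPKM, and Cldn11 91.5, 100.2 and 118.2 FPKM. In each of these 6 genes the highest value came from vehicle + AECs replicate 6, the only library of this group in the high set. The same mouse had the lowest Mal value of the group, where Mal had 81.8, 105.7 and 108.7 FPKM, and the highest Opalin value, where Opalin had 11.6, 12.6 and 26.5 FPKM. Against vehicle, 1 estimate was above 0 and 7 below (median -0.063, all genes 0.0085), and 0 of 8 genes passed an unadjusted p of 0.05 against a background of 2.41%. Exact permutation p-values ran from 0.433 to 0.866. The median was -0.14 without vehicle + AECs replicate 6 and -0.00078 without vehicle replicate 5. With the set as a term 5 estimates were above 0 and 3 below (median 0.014), intervals lay between -0.20 and 0.32, and 0 of 8 genes passed against 3.54% of all genes.

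The interaction asks whether the difference made by AECs was not the same with and without angiotensin II. It had a median of 0.16 over the 8 genes (7 above 0, 1 below), the largest median of the 4 comparisons, led by Cnp at 0.26 (SE 0.25). Cldn11 had the lowest p (0.17, SE 0.14, unadjusted p = 0.230 in limma, adjusted p = 0.930), and 0 of 8 genes passed against 2.54% of all genes. The 2 groups that enter it with a positive sign, vehicle and angiotensin II + AECs, held 4 of the 6 libraries of the high set. The median dropped to 0.079 when vehicle replicate 5 was left out, and was 0.25 when angiotensin II replicate 5 was. With the set as a term the median was 0.0038, with 4 genes above 0 and 4 below, and 0 of 8 passed against 3.41% of all genes. In all 4 comparisons 0 genes of the whole table passed an adjusted p of 0.05 in either fit.

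**Figure D2:**
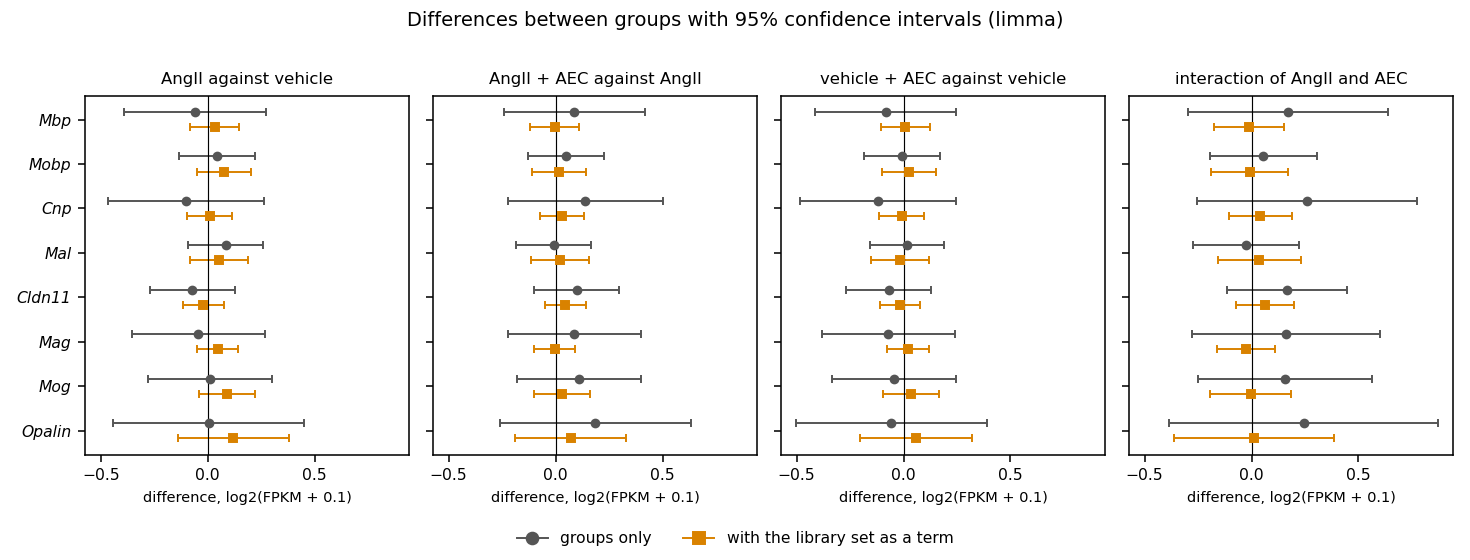
Difference between groups in log2(FPKM + 0.1) for each myelin gene (horizontal axis, one panel per comparison) with its 95% confidence interval from limma. Circles are the fit with groups only and squares the fit with the library set as a term. Every interval spans 0, and the intervals of the squares are the narrower ones, with the median SE at 0.058 instead of 0.14 in the comparison of angiotensin II and vehicle.

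For each of the 8 genes the difference between the sets of libraries exceeded its estimate in any of the 4 comparisons of treatments. Mbp was 590.5 to 724.7 FPKM in the 6 libraries of the high set and 412.8 to 509.7 FPKM in the other 18, and Cnp was 201.8 to 226.3 FPKM and 120.4 to 151.2 FPKM. Mag was 81.6 to 96.0 FPKM against 58.0 to 69.2 FPKM, and Mog 62.0 to 82.6 FPKM against 47.4 to 61.9 FPKM. Cldn11 was 114.5 to 127.4 FPKM against 91.1 to 114.1 FPKM. For these 5 genes every library of the high set stood above each of the others, in all 4 treatment groups. Opalin was 17.3 to 26.5 FPKM against 10.3 to 18.1 FPKM, with a slight overlap, and Mobp 197.8 to 251.3 FPKM against 186.7 to 241.8 FPKM. Mal went the other way, at 81.8 to 105.9 FPKM against 96.6 to 132.7 FPKM. Since the sets were found in the same libraries, this is a description, with no test.

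In the means of log2(FPKM + 0.1), the high set exceeded the others by 0.69 for Opalin, 0.66 for Cnp, 0.55 for both Mag and Mbp, 0.48 for Mog, 0.32 for Cldn11 and 0.19 for Mobp, and Mal was lower by a difference of -0.18. The median of the 8 genes was 0.52, where the median of all genes tested was -0.072. Of all genes tested, 11.2% lay wholly above and 16.3% wholly below in the high set. Most of these are well expressed, and among genes with a mean of at least 1 FPKM the shares were 22.1% above and 28.9% below. The 5 of 8 myelin genes above, with 0 below and 3 overlapping, are read against those shares. Marker sums of other cell types differed as well: in the high set the endothelial markers summed to 106.4 to 128.3 FPKM against 64.6 to 89.0 FPKM, the microglial markers to 109.2 to 125.3 FPKM against 73.4 to 89.0 FPKM, and the choroid plexus markers to 835.9 to 1122 FPKM against 353.5 to 770.0 FPKM. These sums rest on few abundant genes. Cldn5 and Ly6c1 lay wholly above, while the endothelial genes Pecam1 (-0.050) and Flt1 (-0.060) overlapped. Ttr and Folr1 of the choroid plexus lay above, while Aqp1 (0.48) and Kl (-0.57) overlapped. Of the microglial genes Tmem119 and C1qa lay above, Cx3cr1 (-0.43) wholly below, and P2ry12 and Csf1r overlapped. Sums of neuronal markers overlapped, at 722.1 to 774.1 FPKM against 667.9 to 723.2 FPKM. The part of these cell types in the levels of the myelin genes was not tested.

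**Figure D3:**
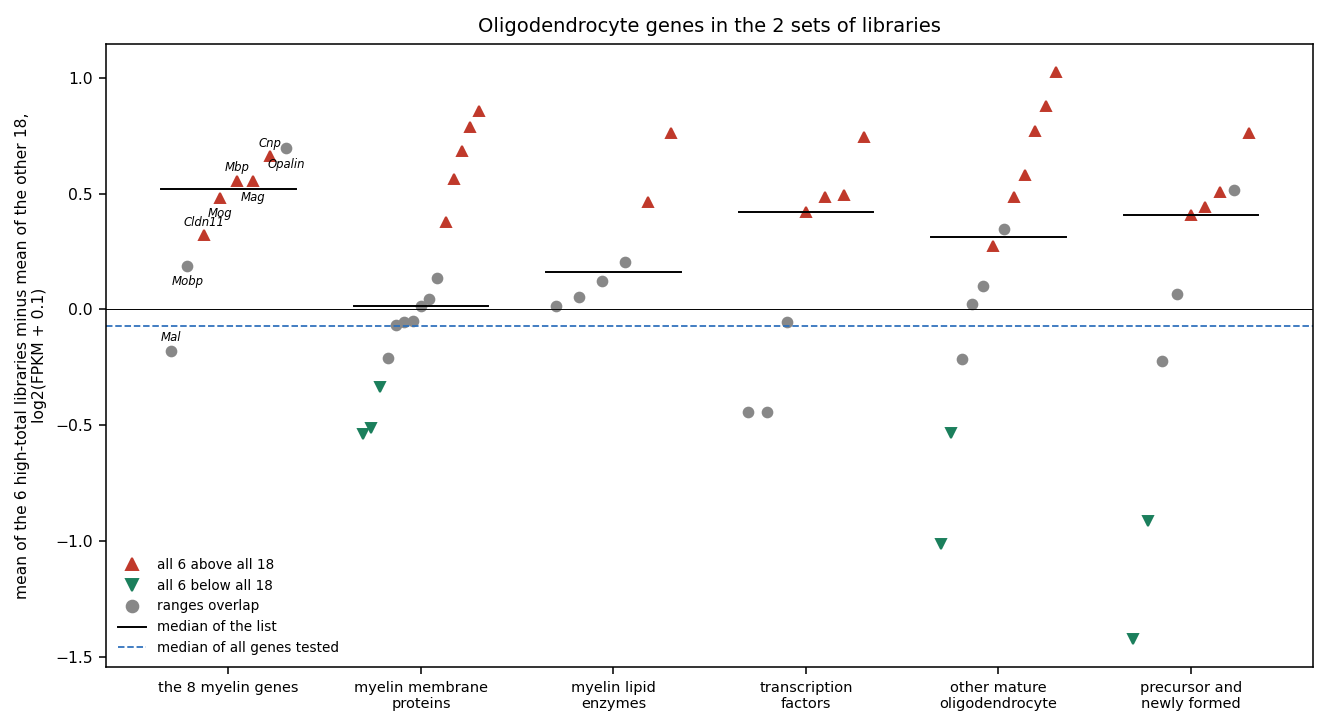
Mean of the 6 libraries with a high total FPKM minus the mean of the other 18, in log2(FPKM + 0.1) (vertical axis), for the 8 myelin genes and 5 lists of other oligodendrocyte genes (horizontal axis). Each point is a gene, its shape tells whether the 6 libraries lay wholly above or below the 18, black lines are medians of the lists and the dashed line is the median of all genes tested, -0.072. Of the 8 myelin genes, 5 lay wholly above and Mal is the only one below 0.

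The library sets also changed the order of the genes. Cldn11 exceeded Mal in 6 of 6 libraries of the high set and in 0 of the other 18. Cldn11 averaged 122.7 ± 5.25 FPKM and Mal 94.9 ± 10.1 FPKM in the high set (SD, n = 6), and 98.4 ± 5.63 FPKM and 107.1 ± 7.97 FPKM in the others (SD, n = 18). Nearly equal means over 24 mice thus hid 2 orders. Mobp exceeded Cnp in 18 of 18 of the other libraries and in 4 of 6 of the high set, and Mal exceeded Mag in 18 of 18 and in 4 of 6.

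**Figure D4:**
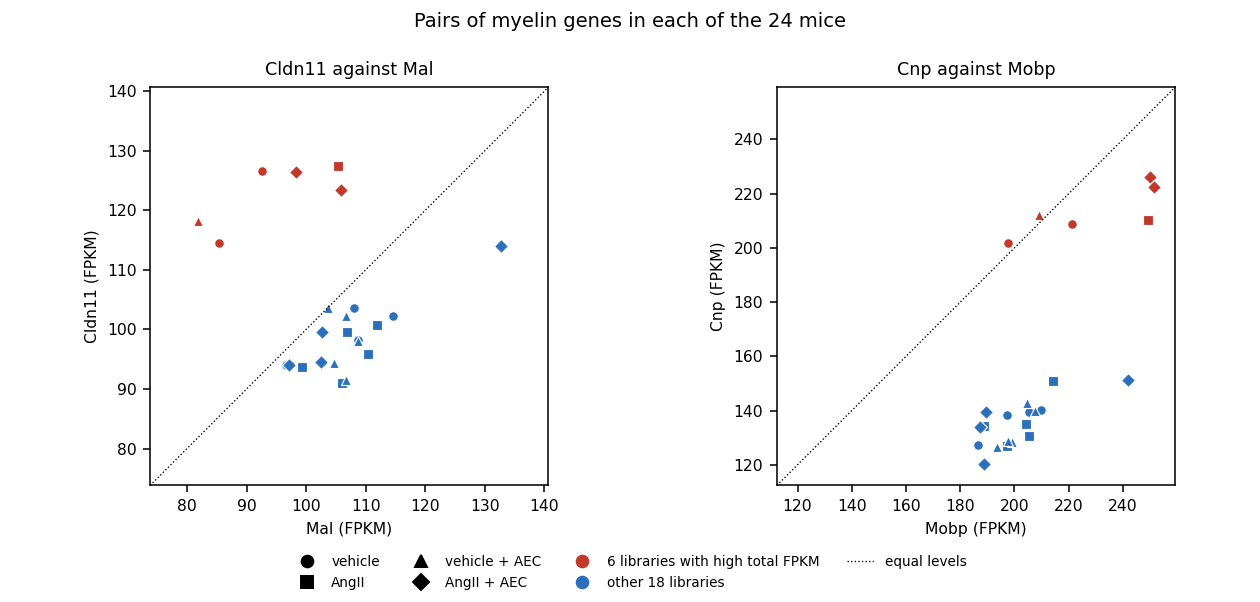
Cldn11 against Mal and Cnp against Mobp, each in FPKM, in the 24 mice. Colours mark the library sets, shapes the treatment groups and the dotted line equal levels. The 6 libraries of the high set lie above the line for Cldn11 and Mal and the 18 others below it, and for Cnp and Mobp only 2 of 24 mice lie above it.

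Within the 18 other libraries the myelin genes were steady. Coefficients of variation between mice were 5.30% for Mag, 5.43% for Mbp, 5.72% for Cldn11, 6.18% for Cnp, 6.54% for Mobp, 7.01% for Mog and 7.44% for Mal. Opalin stood apart at 15.8%, where counting error alone would give 4.57%. One mouse, angiotensin II + AECs replicate 2, had the highest value of 7 of the 8 genes, among them 509.7 FPKM for Mbp, 241.8 FPKM for Mobp and 132.7 FPKM for Mal. The same mouse had the lowest cerebellar marker sum (99.9 FPKM) and the lowest choroid plexus marker sum (353.5 FPKM) of the 24, and the part of either in its myelin gene levels was not tested. For Opalin the highest was angiotensin II + AECs replicate 4, at 18.1 FPKM. The lowest values belonged to angiotensin II + AECs replicate 1 for 4 genes (412.8 FPKM for Mbp), to vehicle replicate 1 for 3 and to angiotensin II replicate 6 for 1 (Cldn11, 91.1 FPKM). Mice of the angiotensin II + AECs group thus gave 8 of the 8 highest and 4 of the 8 lowest values.

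The genes varied together from mouse to mouse, but not as 1 block. Over the 18 libraries, the 28 pairs had Pearson correlations of log2(FPKM + 0.1) from 0.231 to 0.94 with a median of 0.689, and Spearman correlations from 0.183 to 0.94 with a median of 0.610. Mbp and Cnp were the closest pair (0.94), followed by Mobp and Mal (0.922), Mag and Cnp (0.910) and Mog and Mag (0.905). Mal and Opalin were the least alike (0.231). The 6 pairs among Mbp, Cnp, Mag and Mog had at least 0.805. Without the 2 mice farthest from the median, angiotensin II replicate 3 and angiotensin II + AECs replicate 2, the median was 0.513 and the range -0.174 to 0.913. Mbp and Cnp then still had 0.913 and Mobp and Mal 0.800, while Mag and Mal had 0.0506. All values of a mouse come from 1 library, with its depth and composition, so these are descriptions.

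**Figure D5:**
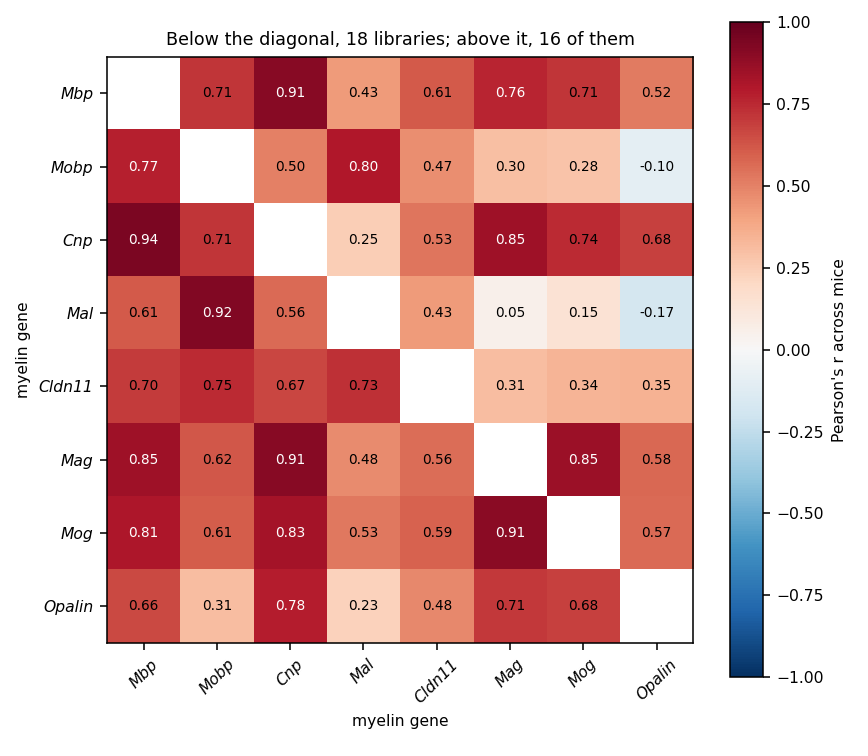
Pearson correlations between the myelin genes (both axes) across mice in log2(FPKM + 0.1). Squares below the diagonal use the 18 other libraries, and squares above it leave out the 2 mice farthest from the median. Mbp with Cnp (0.94) and Mobp with Mal (0.922) are the darkest below the diagonal, and Mal with Opalin (-0.174) is the lowest above it.

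Among the genes whose pattern was most like the mean of the 8, out of 13641 other genes with a mean of at least 1 FPKM and over all 24 mice, were Bcas1, Gjb1, Prdx1, Qdpr, Pdlim2, Fcgrt, Rhog, Selenof and Vdac1. Since the libraries fall into separate sets, only the correlations over the 18 other libraries are given. They were 0.863 for Bcas1, a gene of oligodendrocytes that are starting to myelinate, 0.666 for Gjb1, a connexin of oligodendrocyte gap junctions, and 0.784 for Qdpr, which recycles tetrahydrobiopterin. Rhog had 0.816, Pdlim2 0.798, Vdac1 0.775, Fcgrt 0.760, Prdx1 0.689 and Selenof 0.683. All of these genes also had the higher mean in the high set, by 0.36 (Vdac1) to 0.90 (Fcgrt) on the log2 scale. Ranked over the 18 other libraries alone, Bcas1 came 3rd, Rhog 15th and Pdlim2 28th, but Prdx1 248th, Selenof 268th and Gjb1 337th. The choice over 24 mice is thus not a list of the closest genes within the 18.

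The rest of the oligodendrocyte programme was followed in 5 lists of 49 genes, all tested. In the fit of groups only, 0 of the 49 passed an unadjusted p of 0.05 in any of the 4 comparisons, against 2.21% to 2.54% of all genes. With the library set as a term, between 1 and 2 of 49 did in each, against 3.41% to 3.90% of all genes, and none passed after adjustment (limma, adjusted p of at least 0.9999). Such counts do not stand apart from the background, and the genes that follow are given for their values only. Among other mature oligodendrocyte genes (12), Trf, the iron carrier transferrin, was 12.2 ± 4.50 FPKM with angiotensin II and 12.1 ± 4.35 FPKM with vehicle (SD, n = 6), with a log2 difference of 0.19 in the fit with the set (SE 0.084, unadjusted p = 0.0348 in limma). Between angiotensin II + AECs and angiotensin II, Ndrg1 had a difference of -0.11 (unadjusted p = 0.0233 in limma) and Car2, a carbonic anhydrase of myelin, -0.098 (unadjusted p = 0.0465 in limma). Of the 9 genes of precursors and newly formed oligodendrocytes, Pdgfra, the growth factor receptor of the precursors, was 3.59 ± 0.820 FPKM in vehicle + AECs mice and 2.85 ± 0.829 FPKM in vehicle mice (SD, n = 6). Its difference was 0.20 with the set as a term (SE 0.060, unadjusted p = 0.00335 in limma) and 0.34 without (SE 0.23, unadjusted p = 0.153 in limma), and its interaction was -0.27 (SE 0.085, unadjusted p = 0.00424 in limma). Of the 6 myelin lipid enzymes, Gal3st1, which makes sulfatide, had -0.16 between vehicle + AECs and vehicle (SE 0.067, unadjusted p = 0.0269 in limma).

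None of the 15 myelin membrane protein genes and none of the 7 transcription factors passed in either fit. The nearest were Cd9 between angiotensin II + AECs and angiotensin II (-0.10, unadjusted p = 0.0510 in limma with the set as a term) and Olig2 between vehicle + AECs and vehicle (-0.16, unadjusted p = 0.0697 in limma with the set as a term). Myrf, the regulator of myelin genes, was 10.7 ± 0.279 FPKM with angiotensin II and 10.1 ± 0.818 FPKM with vehicle (SD, n = 6), with a difference of 0.091 (SE 0.053, unadjusted p = 0.101 in limma). Between the library sets these lists split in both directions, with 21 of 49 genes wholly above, 7 wholly below and 21 overlapping, and a median of 0.14. Trf (1.02) and Klk6 (0.88) were among the genes with the highest differences between the sets, and Tnr (-1.42), Anln (-1.01) and Pdgfra (-0.91) had the lowest. Olig1 (0.49), Olig2 (0.74) and Sox10 (0.42) lay wholly above in the high set, and Myrf (-0.054) overlapped.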

How the data were processed

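Brain RNA of 24 mice in 4 groups of 6 was analysed, each mouse assigned from its sample labels. The authors deposited 1 table of FPKM values per gene and mouse, with the gene length they used, after mapping reads to an Ensembl mouse genome. Positions are those of GRCm38, and the submitters' processing notes name DESeq 1.10.1. The aligner, the counting program, the annotation release and the use of strand are not given in the sources used here. Poly(A) RNA was selected before library preparation.

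The products of FPKM and gene length were in 100% of cases whole multiples (within 0.05) of the value of 1 fragment, which gave 16536449 to 25308700 fragments per mouse. Counting errors quoted from these fragments cover counting only. In the 60 pairs of libraries within groups, none was a copy of the other, and pairs across groups were not compared. Log2(FPKM + 0.1) was fitted in R 4.3.3 with limma 3.58.1 (eBayes with a trend) for the 27286 genes above 0 in at least 6 mice, with p-values adjusted by Benjamini-Hochberg over them, with all 4 groups sharing 1 estimate of the spread. The exact permutation tests enumerated 924 splits of the mice compared. On simulated data with known changes the fit was tested and recovered their direction.

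The 2 sets of libraries were split at the widest gap in total FPKM. Alternatives were pseudocounts of 1 and 0.01, no filter, genes with a mean of at least 1 FPKM, only the compared groups, the replicate number as a block, rescaling by median ratios, voom on the recovered fragments, the library set as a term, the 18 other libraries alone and each mouse left out in turn. The 8 genes, the 5 lists of other oligodendrocyte genes and the marker lists were chosen with earlier results of these data known. From those 5 lists every gene with an unadjusted p-value under 0.05 could be named, and otherwise those with the lowest p-values. Genes described between the library sets were chosen after their values were seen. Values of a few genes of these lists and rankings are left out of the text. The 10 genes most like the 8 were ranked by Pearson correlation with the mean of their log2 values. Upstream bases of 7 of the 8 genes came from RefSeq (GRCm38.p6), and only windows free of annotated exons were printed. The promoter of Mbp was not searched. Tables used pandas 2.3.3 and numpy 2.4.6 under Python 3.11.15, and plots matplotlib 3.10.9.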

Additional observations from a re-analysis of the deposited data

Results flagged for a closer look

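The level of a gene in 1 mouse stood far from the other 5 of its group in 12 of 32 combinations of gene and group, where chance marks about 1 in 20. In 11 of the 12 the mouse was one of the 6 libraries with a high total FPKM, in a group that held only 1 of them. For angiotensin II replicate 5 these were Mbp at 707.8 FPKM, Cnp at 210.3 FPKM, Cldn11 at 127.4 FPKM, Mag at 94.0 FPKM and Mog at 81.5 FPKM. Vehicle + AECs replicate 6 gave Mbp at 666.0 FPKM, Cnp at 212.1 FPKM, Mag at 95.01 FPKM, Mog at 69.7 FPKM and Opalin at 26.5 FPKM, all above the other 5 mice, and Mal at 81.8 FPKM, below them. The remaining one was Mal in angiotensin II + AECs replicate 2, at 132.7 FPKM, a library outside the high set. The part that the make-up of these libraries has in the values was not tested.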

How the results depend on the processing

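The counts of myelin genes past an unadjusted or an adjusted p-value of 0.05 stayed at 0 in all 4 comparisons under every alternative that was run, those that left out 1 mouse included. The fit of only the compared groups has no counterpart for the interaction, which needs all 4. Deviations of mice with the same replicate number correlated at 0.234 to 0.532 for numbers 1, 2 and 4 and at 0.0319 to 0.445 for number 3, and at -0.224 to 0.797 for numbers 5 and 6, whose mice fall in both library sets. Mice with different numbers were not correlated for comparison, so these values cannot decide whether the numbers pair mice. The labels do not say that a number marks anything shared, so it was not used to pair mice. With the replicate block, the median differences were those of the fit without it (-0.020, 0.093, -0.063 and 0.16 for the 4 comparisons in the order of the report), and no call changed. The medians moved by less than the SD between mice of the mean of the 8 genes (0.21), but their sign in the comparison of angiotensin II and vehicle rested on single libraries: the median was -0.14 without angiotensin II replicate 5, and turned to 0.051 without vehicle replicate 5, 0.016 without vehicle replicate 6, 0.013 without angiotensin II replicate 2 and 0.019 without angiotensin II replicate 4, the last 2 of these outside the high set. Single estimates near 0 changed sign as follows, on the log2 scale, and the cause was not tested. With the library set as a term, the sign turned between angiotensin II and vehicle to 0.034 for Mbp, 0.048 for Mag and 0.0089 for Cnp. It also turned between angiotensin II + AECs and angiotensin II to -0.0047 for Mbp, -0.0049 for Mag and 0.021 for Mal. It also turned between vehicle + AECs and vehicle to 0.0081 for Mbp, 0.035 for Mog, 0.021 for Mag, 0.025 for Mobp, -0.015 for Mal and 0.058 for Opalin. It also turned for the interaction to -0.013 for Mbp, -0.0047 for Mog, -0.026 for Mag, -0.0083 for Mobp and 0.036 for Mal. In the 18 other libraries alone, the sign turned between angiotensin II and vehicle to 0.032 for Mag and -0.026 for Opalin. It also turned between angiotensin II + AECs and angiotensin II to -0.026 for Mbp, -0.0019 for Mag, -0.0073 for Mobp and 0.015 for Mal. It also turned between vehicle + AECs and vehicle to 0.018 for Mog, 0.0056 for Mobp and -0.0098 for Mal. It also turned for the interaction to -0.011 for Mbp, -0.0014 for Mog, -0.013 for Mobp and 0.025 for Mal. With FPKM rescaled by median ratios, the sign turned between angiotensin II and vehicle to -0.011 for Mog and -0.017 for Opalin. It also turned between angiotensin II + AECs and angiotensin II to 0.0068 for Mal. It also turned for the interaction to 0.00049 for Mal. With each mouse left out in turn, the estimates whose sign turned ranged, between angiotensin II and vehicle, from -0.087 to 0.092 for Mog, -0.15 to 0.088 for Opalin, -0.16 to 0.031 for Mbp, -0.14 to 0.047 for Mag and -0.0070 to 0.073 for Mobp. They ranged, between angiotensin II + AECs and angiotensin II, from -0.074 to 0.016 for Mal and -0.00046 to 0.19 for Mbp. They ranged, between vehicle + AECs and vehicle, from -0.030 to 0.019 for Mobp, -0.17 to 0.0055 for Mbp, -0.11 to 0.035 for Mog, -0.18 to 0.020 for Mag and -0.031 to 0.078 for Mal. They ranged, for the interaction, from -0.090 to 0.022 for Mal. With 6 mice a group, differences inside the intervals given for each comparison are not excluded, and Opalin, with the fewest fragments, had the widest.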

Other observations

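Cerebellar granule and Purkinje cell markers (Cbln1, Cbln3, Gabra6 and Pcp2) summed to 99.9 to 209.5 FPKM over the 24 mice, with 158.2 to 209.5 FPKM in the 6 libraries with a high total FPKM and 99.9 to 176.9 FPKM in the other 18. Hindbrain markers (Hoxb3, Hoxb5, Hoxb6, Hoxa5 and Slc6a5) summed to 10.7 to 15.3 FPKM and 10.9 to 13.99 FPKM in the same sets. Astrocyte markers summed to 161.6 to 189.8 FPKM in the high set and 153.4 to 177.3 FPKM in the others. The cerebellar genes did not go one way: Cbln1 (0.59) and Pcp2 (0.73) lay wholly above in the high set on the log2 scale, while Cbln3 (-0.43) and Gabra6 (-0.31) overlapped. The lowest cerebellar sum was that of angiotensin II + AECs replicate 2. The regional make-up of the libraries was not tested.

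Genes of the same cell type went opposite ways between the library sets. Among neuronal markers, Slc17a7, the vesicular glutamate transporter of excitatory neurons, was 262.1 to 316.5 FPKM in the high set and 167.1 to 213.5 FPKM in the others, while Gad1, which makes GABA in inhibitory neurons, was 32.9 to 36.1 FPKM against 44.8 to 51.5 FPKM. Among microglial markers, C1qa, a complement subunit, was 66.7 to 79.6 FPKM against 34.3 to 46.9 FPKM and Cx3cr1, the fractalkine receptor, 5.64 to 7.43 FPKM against 7.85 to 10.3 FPKM. Among astrocyte markers, Gfap was 88.4 to 111.4 FPKM against 63.9 to 78.2 FPKM and Slc1a3, a glutamate transporter, 29.9 to 35.0 FPKM against 42.0 to 48.5 FPKM. The pairs were picked after their values were seen, and the sets were not tested against each other.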
